A study of Mus musculus with 9 samples.

Results

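Expression was compared between 2 lines of embryonic mouse fibroblasts (MEFs), cells of connective tissue: a line named human APE1 in the labels and a line named vector control. Differences were taken between the 3 arrays titled human APE1 and the 3 titled vector control, 6 of the 9 arrays of the series. The other 3 arrays hold a mouse Ape1 line and entered the estimate of spread behind each SE and p-value. They also entered the mean over all 9 arrays, which decided the transcript cluster that stands for a gene and the genes counted as expressed. Apart from these uses, that line appears only where its own values are given. All 3 lines share 1 male background, described as isogenic to C56BL/6, that lacks both copies of the mouse gene (mApe1-/-) and carries a human APE1 transgene, and whose Ape1 is put at 0.2% of that in normal MEFs. A note deposited with the authors' table names the lines MEF/hAPE1, MEF/vector and MEF/mApe1 and puts APE1 in vector control against the other lines at about 1 to 500, a level that was not checked here. Vector control is therefore a line with very little APE1 rather than none. The labels give neither how the human APE1 and vector control constructs were brought into the cells nor whether a line is 1 clone.

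APE1 is the endonuclease of base excision repair that cuts the DNA backbone where a damaged base has been removed. It also keeps transcription factors such as AP-1, HIF1, NF-kB and p53 in their reduced, DNA-binding form, and for this role it is often called Ref-1. Fibroblasts are known for making collagen, elastic fibres and their crosslinking enzymes, for pulling on that matrix with actin and myosin, and for signalling to it through integrins, cadherins and growth factor receptors. The series asked how each protein, human or mouse, affects groups of genes such as those of the cell cycle and glycolysis.

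There were 41345 transcript clusters with a log2 RMA value on each array, 27037 of them with a gene symbol, which made 24647 genes. Every value below is on this log2 scale, and a value in brackets after a gene is the human APE1 mean minus the vector control mean. Each line was represented by 3 dishes, so p-values measure the spread between dishes within a line, pooled over all 3 lines. The line and its construct cannot be told apart. Array medians lay between 5.65 and 5.74 in human APE1 and between 5.64 and 5.68 in vector control, and the median SE of a difference was 0.106. A gene is said to rise or fall where limma's moderated test gave a Benjamini-Hochberg adjusted p under 0.05 over all transcript clusters. Fibroblast markers were at mixed levels. Vimentin (Vim) was at 13.04 in human APE1 and 12.85 in vector control and fibronectin (Fn1) at 12.99 and 13.01 in the same order, and neither passed the test. Dcn, Pdgfra and Thy1 had means of 5.82, 5.73 and 5.81 in human APE1, near the array medians, and 2 of the 17 fibroblast markers were dim in both lines. Of these markers 8 fell and 1 rose. Of 14 epithelial markers 1 passed, of 10 endothelial markers 0 passed limma's test (1 at an unadjusted p under 0.05) and of 12 skeletal muscle markers 0 (0 unadjusted). Apex1, the mouse gene of Ape1, is not analysed here. Its relative Apex2 was at 7.63, 7.86 and 7.62 in human APE1 and at 7.96, 7.91 and 8.05 in vector control (adjusted p = 0.151).

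In the human APE1 line 1621 genes rose (6.58%) and 2251 fell (9.13%), together 15.7% of the genes tested. With the spread taken from only the 6 arrays of these 2 lines, 1078 rose and 1565 fell. Large changes were mostly falls: 303 genes (1.23%) fell by at least 2-fold and 96 (0.389%) rose by at least 2-fold. Of 13492 expressed genes, those with a mean over all arrays above 5.69, 26.8% passed in either direction. Among them 11.4% rose and 15.4% fell, the shares to set beside the list counts below. Of the called genes 41.9% rose, and 31.3% after array medians were subtracted, which lowered the rises to 1048. At the level of transcript clusters 4859 passed (11.8%), against 3185 when human APE1 replicate 1 was left out and 3203 when replicate 2 of that line was, and falls numbered 1486 without human APE1 replicate 2. The plot of difference against level shows the falls reaching much farther from 0 than the rises.

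**Figure D1:**
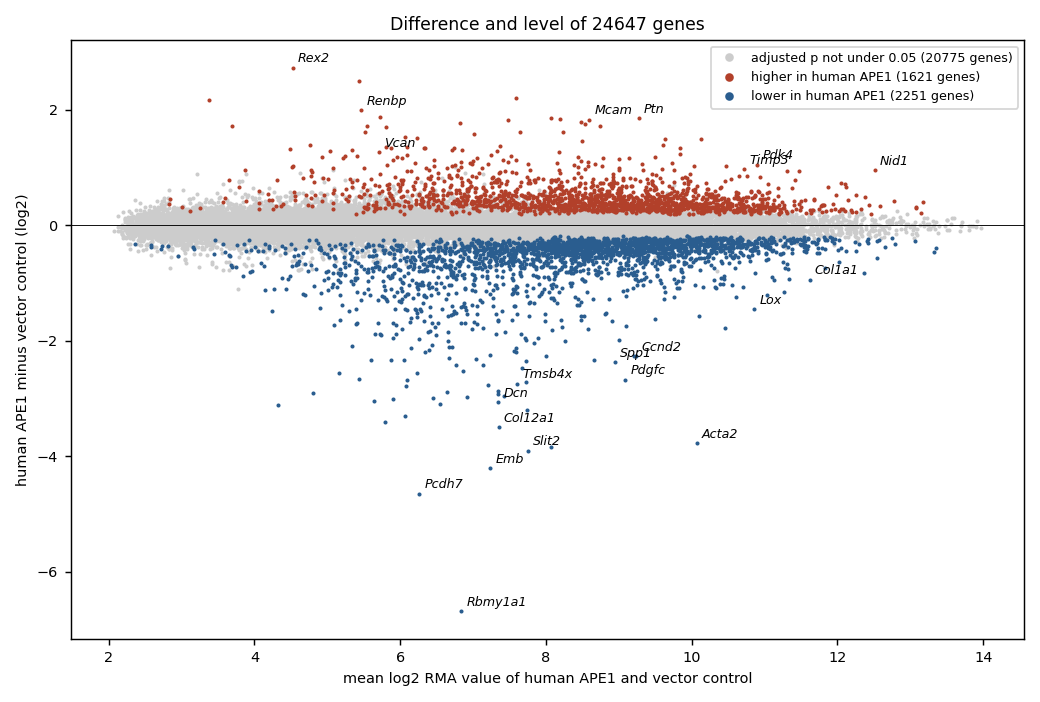
Human APE1 minus vector control (log2, vertical axis) against the mean log2 RMA value of both lines (horizontal axis) for all 24647 genes, with 1621 genes that rose in red, 2251 that fell in blue and genes that did not pass in grey. Labelled genes are among those described in the text, and Acta2 (−3.77) stands apart among bright genes.

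Rbmy1a1 of the Y chromosome had the largest fall (−6.68). Slit2, a secreted ligand that repels growing axons and migrating cells, was at 5.83, 5.73 and 5.85 in human APE1 and at 9.69, 9.70 and 9.72 in vector control, a 14.95-fold fall (SE 0.06, adjusted p = 4.02e-08). The 3 arrays of each line lay close together and nearly 4 log2 units apart. Igfbp7, a secreted binding protein of insulin-like growth factors, had values of 6.21, 6.49 and 5.77 in human APE1, against 9.98, 9.93 and 10.06 in vector control (−3.84, adjusted p = 6.87e-06). Emb, embigin, the membrane partner of lactate transporters, was at 4.89, 5.00 and 5.50 in human APE1 and at 9.44, 9.30 and 9.25 in vector control (−4.20). The fall of Emb belongs to its brighter transcript cluster, and its other cluster differed by −0.43 (adjusted p = 0.0711). Pdgfc, a ligand of the PDGF receptors, was at 7.67, 7.64 and 7.93 in human APE1 and at 10.44, 10.46 and 10.36 in vector control, a 6.38-fold fall. Tmsb4x, thymosin beta 4, which binds actin monomers, was at 6.20, 6.37 and 6.13 in human APE1 and at 9.06, 8.996 and 8.88 in vector control, a 6.69-fold fall. These genes were chosen with groups that do not overlap, which over all 24647 genes holds for 4356 (17.7%) in the direction of a fall and for 3692 in that of a rise.

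Other large falls fell into a few kinds. Membrane receptors and channels included Gria3, a glutamate receptor subunit (−2.99), Lpar4, a lysophosphatidic acid receptor (−2.76), Glrb, a glycine receptor subunit (−2.56), Ptprm, an adhesive receptor phosphatase (−2.97), Tspan7, a tetraspanin (−3.10), and Fam38b, a mechanically gated ion channel now called Piezo2 (−2.67). Transporters were Slc6a15 (−3.30), for neutral amino acids, and Slc7a2 (−2.93), for cationic ones. Signalling proteins were Dapp1, an adaptor that binds phosphoinositides (−3.41), Asap2, an Arf GTPase regulator (−2.78), and Prkd1, protein kinase D1 (−2.56). Dlk1, a shed preadipocyte factor of the Notch ligand family, fell by 2.87. Transcriptional regulators were Eya4 (−2.48) and Zic2 (−2.43), and B4galt6, which makes lactosylceramide, fell by 3.19. Tmem74 (−2.88) and Flrt2, a ligand of Unc5 receptors (−2.53), completed the set with the matrix, contractile and adhesion genes described below. The human APE1 means of Pcdh7, Dapp1, Sema3d and Glrb were under the 25th percentile, where RMA compresses differences, so their sizes are uncertain.

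The largest rises were smaller and of mixed function. Ptn, pleiotrophin, a secreted heparin-binding growth factor, was at 10.49, 10.01 and 10.09 in human APE1 and at 8.46, 8.36 and 8.22 in vector control, a 3.61-fold rise (SE 0.13, adjusted p = 9.01e-05). Mcam, an adhesion molecule of the immunoglobulin family, was at 9.51, 9.43 and 9.58 in human APE1 and at 7.68, 7.58 and 7.76 in vector control, a 3.56-fold rise (SE 0.07, adjusted p = 3.98e-06). Arl6ip1, a membrane-shaping protein of the endoplasmic reticulum, was at 9.08, 9.08 and 9.20 in human APE1 and at 7.27, 7.28 and 7.28 in vector control, a 3.59-fold rise (adjusted p = 2.77e-06). In each of these the lowest human APE1 array lay above the highest vector control array by more than 1.5 log2 units.

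Among further rises were Renbp, an epimerase of N-acylglucosamine (1.99), Slc5a7, the choline transporter (1.87), Klhl28, a kelch protein (1.86), Scp2, a sterol carrier (1.61), Neurl3, a ubiquitin ligase (1.50), Fancm, a helicase of the Fanconi anaemia pathway (1.39), and Rcan2, a calcineurin regulator (1.36). Others were Rragb, a GTPase that signals amino acids to mTORC1 (1.62), Rps6ka6, a ribosomal S6 kinase (1.53), Sorbs2, an actin adaptor (1.71), Dhtkd1, a mitochondrial dehydrogenase subunit (1.34), Ndrg2 (1.31), Hebp2 (1.30), Lrfn3 (1.29), Tmem20 (1.82), Fam179b (1.50), Fam71f1 (1.47) and Igsf11, an adhesion molecule (1.37). The zinc finger genes Rex2 (2.73), Zfp760 (1.75), Zfp600 (1.71) and Zfp167 (1.30), the protocadherins Pcdhb2 (1.59) and Pcdhb3 (1.51), and Gpr137b (1.80) with its pseudogene Gpr137b-ps (1.34) have near relatives, so which copy was measured is uncertain. Rex2 lay below the 25th percentile in vector control, and the size of its rise is uncertain.

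**Figure D2:**
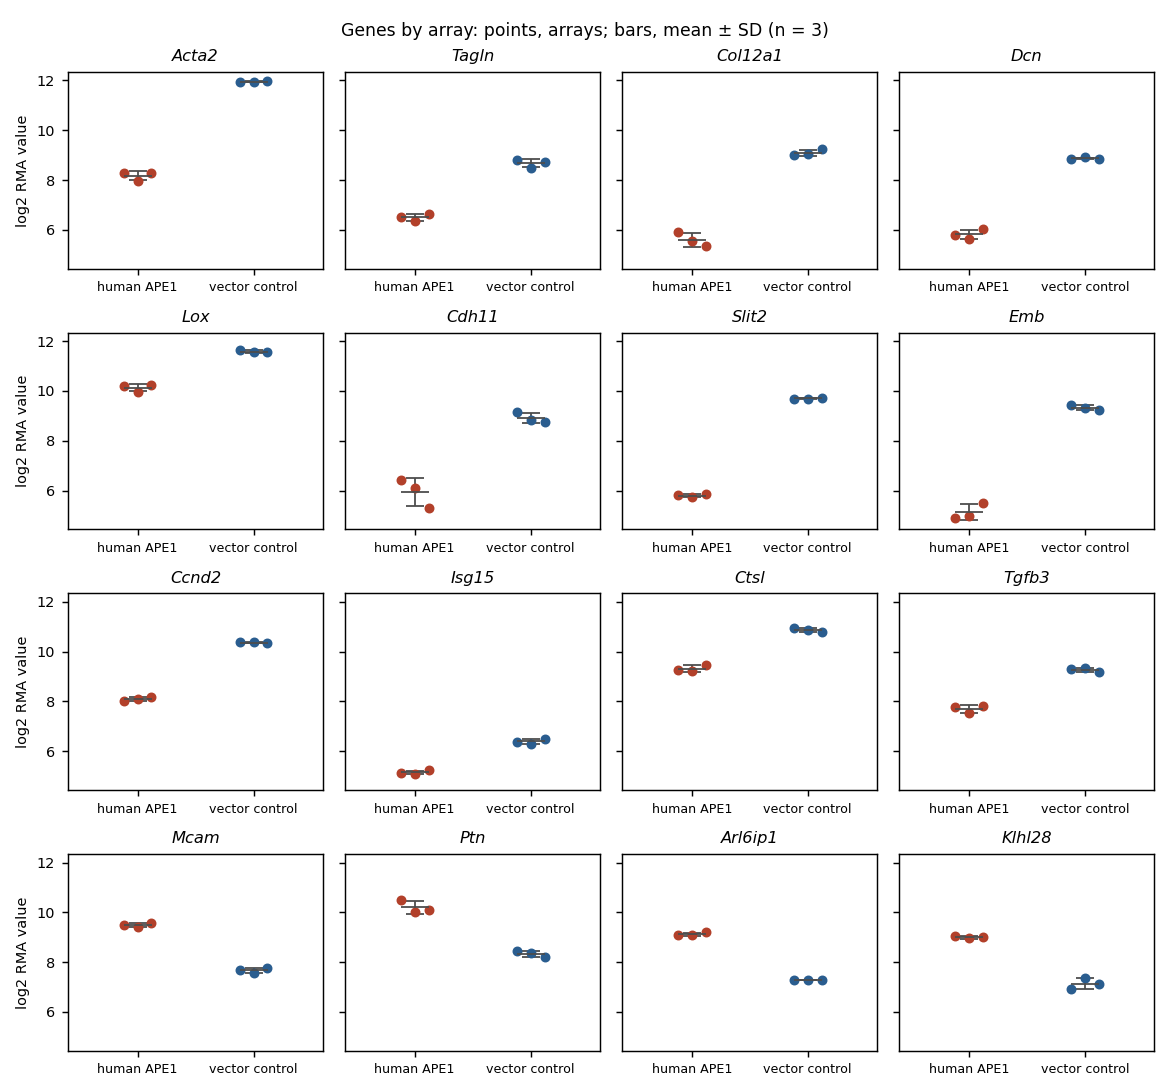
Log2 RMA values (vertical axis, shared by all panels) of 16 genes on the 3 human APE1 arrays (red) and the 3 vector control arrays (blue), with the mean and SD of each line. The genes were chosen as changed: Acta2 to Tgfb3 are lower in human APE1, and Mcam, Ptn, Arl6ip1 and Klhl28 are higher. The lines also do not overlap for 4356 (lower) and 3692 (higher) of all 24647 genes.

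Contractile and actin cytoskeleton genes were led by 3 large falls. Acta2, smooth muscle actin, the marker of contractile myofibroblasts, was at 8.27, 7.98 and 8.30 in human APE1 and at 11.95, 11.93 and 11.98 in vector control, a 13.6-fold fall. Tagln, transgelin, an actin crosslinker, was at 6.50, 6.37 and 6.62 in human APE1 and at 8.82, 8.50 and 8.74 in vector control, a 4.56-fold fall. Actg2, the enteric smooth muscle actin, was at 5.87, 5.56 and 5.55 in human APE1 and at 8.24, 7.02 and 8.04 in vector control, with vector control replicate 2 nearer to human APE1 than the other two. Of 37 such genes 12 fell and 3 rose, with a median of −0.10 beside 0.00 over all genes. Smaller falls were those of Vcl, vinculin of focal adhesions (−0.66), Tpm1, a tropomyosin (−0.34), and Srf (−0.58), the transcription factor that drives actin genes, which was at 8.79, 9.02 and 9.13 in human APE1 and at 9.49, 9.52 and 9.67 in vector control. Rises were Flnc, filamin C (0.39), Mkl1, a coactivator of Srf (0.34), and Actn1, which was called only weakly (0.21, adjusted p = 0.042, and lost without any 1 of the 9 arrays). The authors' deposited table, whose ratios run the other way, vector control above human APE1, gives 9.96 for Acta2 and 5.46 for Tmsb4x.

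Srf acts through the CArG box, and the promoter of the Srf gene itself holds this motif, so it is shown here from 250 bases before to 50 bases after the gene's start (RefSeq, GRCm38.p6, chr17:46556113-46556412, minus strand, read along the gene), with the matches in capitals.
Srf: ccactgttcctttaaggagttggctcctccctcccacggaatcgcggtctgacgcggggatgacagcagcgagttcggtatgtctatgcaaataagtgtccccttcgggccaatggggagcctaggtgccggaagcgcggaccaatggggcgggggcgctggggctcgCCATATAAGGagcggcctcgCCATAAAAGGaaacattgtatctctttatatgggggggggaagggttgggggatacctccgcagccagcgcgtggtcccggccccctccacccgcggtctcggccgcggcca
The window has 2 matches. On either strand the CArG box occurred in 1.63% of 32851 promoters of this length, in 6 of the 30 contractile list members with a promoter sequence and in 3 of the 9 among them that fell. For the same list 2 other motifs were counted. The AP-1 site TGANTCA, with N any base, occurred in 7.81% of all promoters, 3 of the 30 and 0 of the 9. The hypoxia element ACGTG occurred in 19.6% of all promoters, 6 of the 30 and 1 of the 9. A match describes the letters in the window and not a bound site.

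The extracellular matrix showed lower levels of its crosslinking enzymes and of part of its structural genes. Of the matrix glycoproteins 38.3% passed in either direction, above the 26.8% of expressed genes. Collagen chains and proteoglycans (22.9%) passed no more often than expressed genes. Of 24 genes of collagen processing and crosslinking 16 fell and 3 rose, with a median of −0.38. Lox, lysyl oxidase, which links collagen and elastin chains, was at 10.20, 9.97 and 10.23 in human APE1 and at 11.63, 11.57 and 11.55 in vector control, a 2.73-fold fall (SE 0.08, adjusted p = 3.8e-05). Tgm2, a transglutaminase, was at 6.33, 6.14 and 6.11 in human APE1 and at 7.23, 7.16 and 7.27 in vector control. Tll1, a protease that trims procollagen (−0.90), the hydroxylases Leprel1 (−0.77), Plod2 (−0.65) and Plod1 (−0.53), the oxidases Loxl1 (−0.59) and Loxl2 (−0.40), and Serpinh1, the collagen chaperone HSP47 (−0.32), fell as well. The 3 rises were Pcolce, an enhancer of procollagen trimming (0.34), Loxl4 (0.30) and P4ha1, a prolyl hydroxylase (0.24), whose call was lost without any 1 of 6 arrays. Without any 1 array the falls numbered 13 to 16.

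Of 44 collagen chains 9 fell and 2 rose, 1 of these without any 1 of human APE1 replicates 1 and 3 and vector control replicates 2 and 3. Col12a1, which decorates collagen fibrils, was at 5.90, 5.55 and 5.36 in human APE1 and at 9.01, 9.04 and 9.24 in vector control, an 11.2-fold fall. The main fibrillar chains fell less: Col1a1 was at 11.26, 11.07 and 11.11 in human APE1 and at 12.08, 12.06 and 12.13 in vector control (−0.94), and Col1a2 (−0.68) and Col3a1 (−0.87) fell too. So did the microfibril chains Col6a1 (−0.57) and Col6a2 (−0.76) and the basement membrane chain Col4a2 (−0.54). Col5a2, which seeds fibrils, rose and was at 9.42, 9.26 and 9.25 in human APE1, against 8.60, 8.54 and 8.56 in vector control.

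Of 47 matrix glycoproteins 15 fell and 3 rose. Spp1, osteopontin, a secreted ligand of integrins, was at 7.60, 7.80 and 7.88 in human APE1 and at 10.17, 10.15 and 10.07 in vector control, a 5.16-fold fall. Fbn2, fibrillin of elastic microfibrils, was at 5.19, 5.36 and 5.18 in human APE1 and at 7.24, 7.45 and 7.62 in vector control, a 4.57-fold fall. Ltbp2 (−1.42), Fbln5, which assembles elastic fibres (−1.12), Tnc, tenascin (−1.34), Thbs2, thrombospondin 2 (−1.32), and Npnt, nephronectin (−1.28), fell as well. Nid1, nidogen of basement membranes, rose and was at 12.93, 12.996 and 13.03 in human APE1, against 11.94, 12.08 and 12.08 in vector control. Ltbp1, which holds latent TGF-beta (0.45), and Efemp1 (0.77) were the other rises.

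Of 35 proteoglycans 5 fell and 3 rose. Dcn, decorin, which binds collagen fibrils, was at 5.78, 5.64 and 6.03 in human APE1 and at 8.85, 8.91 and 8.86 in vector control, an 8.33-fold fall. Vcan, versican, a large space-filling proteoglycan, rose and was at 6.43, 6.45 and 6.15 in human APE1, against 5.15, 4.86 and 5.21 in vector control. The glypicans, which hold growth factors at the cell surface, were split, with Gpc1 lower (−0.82) and Gpc6 higher (0.91). The falls numbered 3 without any 1 of human APE1 replicates 1 and 2, vector control replicate 2 and mouse Ape1 replicate 1. Laminins, the basement membrane heterotrimers, had 1 fall among 11 subunits, that of Lama4 (−1.72, below the 25th percentile in human APE1), beside 2 rises, among them Lamc1 (0.33), of which 1 was left without any 1 array other than vector control replicate 3 and mouse Ape1 replicate 2.

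Secreted proteases and their inhibitors moved both ways. Of 43 genes 9 fell and 4 rose, and the rises numbered 1 or 2 without any 1 human APE1 or vector control array. Adamts12, a metalloproteinase of the matrix, was at 5.48, 5.50 and 5.51 in human APE1 and at 7.21, 7.06 and 7.17 in vector control, a 3.14-fold fall. Plau, urokinase (−0.65), Mmp2, a gelatinase (−0.43), Reck, a membrane inhibitor of metalloproteinases (−0.57), and Timp1, an inhibitor (−0.86), fell. Timp3, the matrix-bound inhibitor, rose and was at 11.23, 11.17 and 11.20 in human APE1, against 10.16, 10.32 and 10.21 in vector control. Of 18 lysosomal cathepsins and their partners 7 fell and 0 rose by limma (1 at an unadjusted p under 0.05), with Ctsl, cathepsin L (−1.56), Ctsc (−1.27) and Ctso (−1.004) falling most, and 6 or 7 fell without any 1 array.

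TGF-beta induces collagen and smooth muscle actin in fibroblasts. Of 55 genes of the TGF-beta and BMP pathway 11 fell and 1 rose, with a median of −0.06. Together 21.8% of this list passed, no more than the 26.8% of expressed genes. Among ligands, Tgfb3 was at 7.79, 7.52 and 7.80 in human APE1 and at 9.29, 9.34 and 9.18 in vector control, a 2.97-fold fall, and Tgfb1 fell by 0.82. Among receptors, Tgfbr3, a co-receptor (−1.16), and Bmpr1b (−1.48, below the 25th percentile in human APE1) fell and Tgfbr1 rose (0.41). Among targets and inhibitors, Ctgf (−0.94), Bambi (−0.85) and Smad6 (−0.73) fell.

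**Figure D3:**
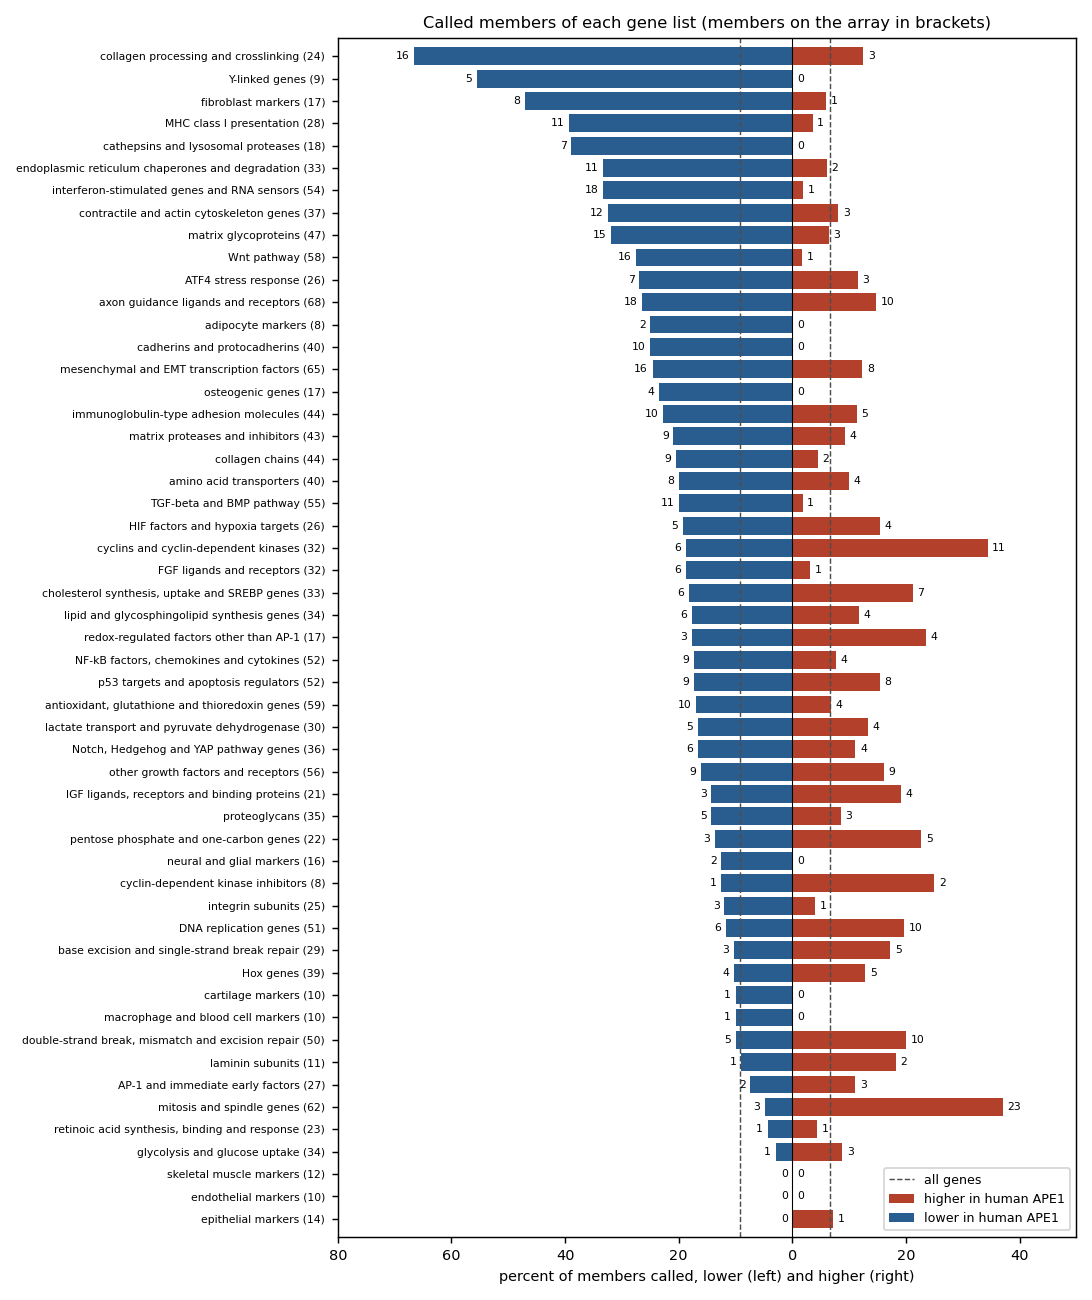
Percent of the members of each gene list that fell (blue, left) or rose (red, right) in human APE1 against vector control, with counts at the bar ends and the number of members on the array in brackets. Dashed lines mark all genes, 9.13% lower and 6.58% higher, and collagen processing (16 of 24 lower) and mitosis genes (23 of 62 higher) reach farthest on either side among the larger lists.

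Cadherins join cells through calcium. Of 40 classical and atypical cadherins and non-clustered protocadherins 10 fell, also without any 1 array, and 0 rose by limma (0 at an unadjusted p under 0.05). The list leaves out the clustered protocadherins, of which Pcdhb2 and Pcdhb3 rose. Cdh11, the fibroblast cadherin, was at 6.43, 6.10 and 5.32 in human APE1 and at 9.14, 8.83 and 8.76 in vector control, a 7.77-fold fall, with human APE1 replicate 3 lower than the other two. Cdh13, a cadherin held by a lipid anchor, was at 5.36, 5.32 and 5.54 in human APE1 and at 7.46, 7.46 and 7.51 in vector control, a 4.19-fold fall. Cdh10 (−2.08), Cdh6 (−1.41), Pcdh7 (−4.65), and Dchs1 (−1.22) and Fat4 (−1.03), the ligand and receptor of planar polarity, fell too, although a dimmer cluster of Fat4 differed by −0.19 (adjusted p = 0.51). Cdh2, N-cadherin, was at 11.27 in human APE1 and 11.16 in vector control (adjusted p = 0.234).

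Of 44 immunoglobulin-type adhesion molecules 10 fell and 5 rose. Besides Emb, Alcam was at 6.50, 6.85 and 6.83 in human APE1 and at 8.68 on all 3 vector control arrays, a 3.88-fold fall. Jam3 of cell junctions (−0.94), Ncam1 (−0.91) and Igsf3 (−1.04) fell, and Mcam, Igsf11 and Cadm1 (0.66) rose. The rises numbered 3 without human APE1 replicate 1 or vector control replicate 1. Of 25 integrin subunits 3 fell, Itgb1, the partner of most collagen and fibronectin receptors (−0.42), Itga1, a collagen receptor (−0.99), and Itgb3 (−0.77), and 1 rose, Itga3, a laminin receptor (0.54).

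Of 68 axon guidance ligands and receptors, which also steer fibroblasts, 18 fell and 10 rose. Besides Slit2 the ligands Sema3d (−2.66) and Sema5a (−1.39) and the receptors Ephb2 (−1.67), Unc5b (−1.24) and Epha7 (−1.06) fell. Nrp2, a receptor of semaphorins and VEGF, rose and was at 8.72, 8.65 and 8.70 in human APE1, against 7.56, 7.59 and 7.67 in vector control, and Plxnb1 rose by 0.74. The rises are less stable than the falls: they numbered 3 without human APE1 replicate 1, 4 without vector control replicate 1 and 6 without human APE1 replicate 3 or vector control replicate 2 or 3, while the falls numbered 14 to 16 without any 1 array.

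Several growth factor receptors of mesenchyme fell. Pdgfra, the PDGF receptor that marks fibroblasts, was at 5.64, 5.54 and 6.03 in human APE1 and at 7.26, 7.91 and 7.57 in vector control, a 3.60-fold fall, and Pdgfrb fell by 0.41. Of 32 FGF ligands and receptors 6 fell and 1 rose, 21.9% beside 26.8% of expressed genes, with Fgfr2 (−1.14) and Fgfr1 (−0.90) among the falls. Of 58 Wnt pathway genes 16 fell and 1 rose, with a median of −0.12, and 12 to 16 fell without any 1 array. Among Wnt receptors 7 of the Frizzled family fell, namely Fzd1 (−0.59), Fzd3 (−0.58), Fzd4 (−0.67), Fzd5 (−0.56), Fzd6 (−0.58), Fzd7 (−0.78) and Fzd8 (−0.61), while the co-receptor Lrp5 rose (0.51). Lef1, a transcription factor at the end of the pathway, was at 6.74, 7.03 and 6.81 in human APE1 and at 8.29, 8.29 and 8.19 in vector control, a 2.62-fold fall.

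Of 21 genes of the insulin-like growth factor system 4 rose and 3 fell, with Irs2, an adaptor of the receptor (0.89), and Igf2r, which clears IGF2 (0.74), higher and Igfbp7 lower. Of 56 other growth factors and receptors 9 rose and 9 fell, the falls numbering 5 without human APE1 replicate 2, with Ptn, Erbb3 (1.01) and Tgfa, an EGF receptor ligand (0.78), higher. Of 36 genes of the Notch, Hedgehog and YAP pathways 6 fell and 4 rose. Jag1, a Notch ligand, was at 6.20, 6.17 and 6.10 in human APE1 and at 7.68, 7.63 and 7.75 in vector control, a 2.90-fold fall, and the Notch targets Hes1 (−0.69) and Hey2 (−0.73) fell with it. Ptch1, the Hedgehog receptor and target (−0.64), fell, while Gli3, a factor of that pathway (0.61), rose.

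Of 65 transcription factors of mesenchyme 16 fell and 8 rose. Snai2, a factor of the epithelial-mesenchymal transition, was at 10.00, 10.06 and 10.08 in human APE1 and at 11.04, 11.13 and 11.05 in vector control, a 2.03-fold fall. Tbx18 (−1.45), Foxp2 (−1.01), Twist2 (−0.65) and Zeb1 (−0.48) fell, and Meis1 (0.79), Six4 (0.70) and Osr1 (0.42) rose. The rises numbered 5 without human APE1 replicate 2 or vector control replicate 1. Of 17 fibroblast markers 8 fell and 1 rose, among the falls Pdgfra, Dcn and S100a4 (−1.26), and Thy1 was at 5.81 in human APE1 and 5.88 in vector control (adjusted p = 0.778).

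Genes of mitosis rose by small amounts. Of 62 mitosis and spindle genes 23 rose and 3 fell, with a median of 0.13, and 18 to 22 rose without any 1 array. Cenpf, a kinetochore protein, was at 10.54, 10.54 and 10.45 in human APE1 and at 10.07, 10.00 and 9.97 in vector control, a 1.41-fold rise. Bub1b, a checkpoint kinase (0.45), Nusap1, a spindle protein (0.51), Casc5, a kinetochore scaffold (0.48), Aspm of the spindle pole (0.46), Kif18a (0.44) and Kif11 (0.42), both kinesins, and Cenpk (0.79) rose. The falls numbered 1 without any 1 of human APE1 replicates 1 and 2, the 3 vector control replicates and mouse Ape1 replicates 1 and 2.

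Of 32 cyclins and cyclin-dependent kinases with E2F factors 11 rose and 6 fell, and 7 rose without human APE1 replicate 1. Ccnd2, cyclin D2, which starts the cycle with Cdk4, was at 8.04, 8.09 and 8.19 in human APE1 and at 10.38, 10.38 and 10.34 in vector control, a 4.79-fold fall (SE 0.06, adjusted p = 7.17e-07). Ccnd1, cyclin D1, was at 9.89, 9.99 and 10.03 in human APE1 and at 9.94, 9.95 and 9.92 in vector control, and the groups overlapped. E2f1, which drives entry into S phase, fell (−0.46) and E2f7, a repressor of the same targets, rose (0.82). Cdk4 rose and was at 12.58, 12.47 and 12.50 in human APE1, against 12.02, 11.97 and 11.99 in vector control, and Cdk2 rose by 0.46. Of 51 DNA replication genes 10 rose and 6 fell, and the rises numbered 4 to 9 without any 1 array, fewest without human APE1 replicate 1 or vector control replicate 2 or 3.

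Base excision repair is the home process of APE1. Of 29 genes of base excision and single-strand break repair 5 rose and 3 fell, with a median of −0.01. Together 27.6% passed, near the 26.8% of expressed genes. The rises numbered 2 without any 1 of human APE1 replicate 1 and vector control replicates 2 and 3. They numbered 3 without human APE1 replicate 2 or vector control replicate 1, and the falls numbered 1 without any 1 of these arrays. Tdp2 (0.38) and Tdp1 (0.29), which free blocked DNA ends, kept their rise without any 1 array. Of 50 genes of other repair pathways 10 rose and 5 fell, among the rises Lig4, the ligase of end joining (0.57), Rad50 (0.43) and Rad54b (0.45). The rises numbered 4 without human APE1 replicate 1 and 6 without vector control replicate 2, and the falls 1 to 4 without any 1 array.

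APE1 is known to keep several families of transcription factors reduced, and their genes and targets moved both ways. Of 27 AP-1 and immediate early genes 3 rose and 2 fell, 18.5% beside 26.8% of expressed genes, with Jun at 10.48, 10.38 and 10.54 in human APE1 and at 10.38, 10.52 and 10.38 in vector control (adjusted p = 0.817), and Fos at 6.62, 6.62 and 6.67 in human APE1 and at 6.66, 6.69 and 6.81 in vector control (adjusted p = 0.456). Dusp1, a phosphatase of MAP kinases, was among the falls (−0.86), and 1 rose without any 1 of human APE1 replicates 1 to 3 and vector control replicates 1 and 3. Trp53 was at 11.31, 11.45 and 11.38 in human APE1 and at 11.41, 11.34 and 11.40 in vector control (adjusted p = 0.975). Of 17 other redox-regulated factors 4 rose and 3 fell (41.2%), with Stat3 lower (−0.33), and 2 rose without any 1 of human APE1 replicates 1 and 2 and vector control replicate 1. Of 26 HIF factors and hypoxia targets 4 rose and 5 fell (34.6%), with Kdm3a, a histone demethylase, higher (0.54) and Vegfa at 9.87 in human APE1 and 9.89 in vector control (adjusted p = 0.885). The hypoxia rises numbered 2 without any 1 of human APE1 replicates 1 and 2 and vector control replicates 2 and 3, and the falls 3 without any 1 of human APE1 replicate 2 and vector control replicates 1 and 3.

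Of 52 p53 targets and apoptosis regulators 8 rose and 9 fell, the falls numbering 5 without any 1 of human APE1 replicates 1 and 2 and vector control replicate 2. Casp4, an inflammatory caspase, was at 5.51, 5.33 and 5.51 in human APE1 and at 7.35, 7.21 and 7.35 in vector control, a 3.60-fold fall. Fas, the death receptor (−1.30), and Sesn3, a stress-induced regulator of mTORC1 (−1.69), fell. Mdm2 (0.65) and Mdm4 (0.73), the inhibitors of p53, and Plk2 (0.67) rose, and Cdkn1a was at 10.07, 10.25 and 10.28 in human APE1 and at 9.90, 9.99 and 9.99 in vector control (adjusted p = 0.179).

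Few glycolysis genes passed the test. Genes of lactate transport and pyruvate dehydrogenase moved both ways, and the share that passed was near the 26.8% of expressed genes. Of 34 glycolysis and glucose uptake genes 3 rose and 1 fell, and the glucose transporter Slc2a1 was at 10.20, 10.28 and 10.28 in human APE1 and at 10.08, 10.15 and 10.11 in vector control (adjusted p = 0.158). Of 30 genes of lactate transport and pyruvate dehydrogenase 4 rose and 5 fell. Of the kinases that switch the enzyme off, Pdk4 and Pdk1 rose. Pdk4 was at 11.32, 11.42 and 11.54 in human APE1 and at 10.37, 10.40 and 10.35 in vector control, a 2.07-fold rise, and Pdk1 rose by 0.62, with a second cluster at 0.12 (adjusted p = 0.373). The subunits Pdha1 (−0.56), Pdhb (−0.44) and Dlat (−0.39) fell. Slc16a13, a monocarboxylate transporter, fell by 1.58 and Slc16a10, which carries aromatic amino acids, rose by 1.14, while Slc16a1, the lactate transporter that pairs with embigin, was at 10.38, 10.52 and 10.59 in human APE1 and at 10.70, 10.76 and 10.69 in vector control (adjusted p = 0.101).

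Of 59 antioxidant, glutathione and thioredoxin genes 10 fell and 4 rose, 23.7% beside 26.8% of expressed genes. The rises numbered 2 without vector control replicate 1, 2 or 3. Slc7a11, which imports cystine for glutathione synthesis, was at 6.40, 6.48 and 6.63 in human APE1 and at 8.20, 8.26 and 8.05 in vector control, a 3.16-fold fall, and a dimmer cluster of it differed by −0.50 (adjusted p = 0.111). Prdx3, the mitochondrial peroxiredoxin, was at 9.26, 9.18 and 9.36 in human APE1 and at 10.35, 10.35 and 10.32 in vector control, a 2.11-fold fall. Glrx, glutaredoxin (−1.18), and Gsto1 (−0.95) fell, and Gsta4 (0.47) and Txnrd1, thioredoxin reductase (0.29), rose. Hmox1, heme oxygenase, was at 10.65 in human APE1 and 10.85 in vector control (adjusted p = 0.2).

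Many genes of innate immunity fell. Of 54 interferon-stimulated genes and RNA sensors 18 fell and 1 rose, with a median of −0.25, and 14 to 20 fell without any 1 array. Isg15, a ubiquitin-like modifier, was at 5.12, 5.10 and 5.23 in human APE1 and at 6.38, 6.30 and 6.51 in vector control, a 2.37-fold fall. Ifih1, the RNA sensor MDA5, was at 6.24, 6.26 and 6.56 in human APE1 and at 7.38, 7.45 and 7.48 in vector control. The GTPases Gbp7 (−1.38), Irgm1 (−1.27) and Gbp2 (−0.74), the tether Bst2 (−0.63), Lgals3bp (−1.18), Trim25, a ubiquitin ligase (−0.80), Irf3, a factor that induces interferon (−0.50), and Ifnar2, a chain of its receptor (−0.65), fell, and Stat2 rose (0.76).

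Of 28 genes of MHC class I presentation 11 fell and 1 rose, with a median of −0.30, and 9 to 11 fell without any 1 array, while the rise was lost without any 1 array other than vector control replicate 3. B2m, the light chain, was at 12.20, 12.23 and 12.33 in human APE1 and at 12.81, 12.83 and 12.82 in vector control. The heavy chain H2-K1 (−0.50), the peptide trimming enzyme Erap1 (−1.18), the loading factor Tapbp (−0.71), the regulator Nlrc5 (−0.48) and Ulbp1, a ligand of natural killer cells (−1.35), fell, as did H2-Q6 (−1.19), a member of a multigene family whose copies are uncertain. Of 52 NF-kB factors, chemokines and cytokines 9 fell and 4 rose. Ccl5 was at 6.08, 5.99 and 5.95 in human APE1 and at 7.43, 7.53 and 7.59 in vector control, a 2.85-fold fall, Cxcl10 fell by 1.12, and Cxcl12, the chemokine of stroma, rose by 0.94.

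The promoters of Isg15 (chr4:156200769-156201068, minus strand) and B2m (chr2:122147437-122147736, plus strand) are shown because both genes fell and both hold the element made of GAAA, any 2 bases and GAAA, through which interferon regulatory factors act (RefSeq, GRCm38.p6, matches on either strand in capitals).
Isg15: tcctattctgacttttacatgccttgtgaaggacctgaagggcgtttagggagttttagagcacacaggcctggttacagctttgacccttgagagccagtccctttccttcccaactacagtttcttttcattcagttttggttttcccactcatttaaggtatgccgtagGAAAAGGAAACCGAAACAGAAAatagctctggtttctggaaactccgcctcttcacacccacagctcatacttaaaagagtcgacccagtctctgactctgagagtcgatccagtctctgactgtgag
B2m: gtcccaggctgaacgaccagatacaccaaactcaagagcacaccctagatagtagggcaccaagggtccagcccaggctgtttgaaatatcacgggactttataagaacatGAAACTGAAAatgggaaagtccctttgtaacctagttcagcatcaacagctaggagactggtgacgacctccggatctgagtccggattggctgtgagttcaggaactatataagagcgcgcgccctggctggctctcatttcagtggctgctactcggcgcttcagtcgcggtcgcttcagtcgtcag
In Isg15 the 3 matches overlap one another. The element occurred in 3.44% of all promoters, in 18 of 41 interferon list members with a promoter and in 7 of the 16 among them that fell, so it was as common in members that fell as in the whole list. In the MHC class I list 5 of 22 promoters held it, and 3 of the 10 of members that fell.

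Of 33 endoplasmic reticulum chaperones and degradation factors 11 fell and 2 rose, with a median of −0.09, and 10 or 11 fell without any 1 array. Sel1l, a scaffold of the degradation complex, was at 10.24, 10.05 and 10.22 in human APE1 and at 11.20, 11.23 and 11.27 in vector control, a 2.09-fold fall. Sdf2l1 (−0.83), Herpud1 (−0.62), Creld2 (−0.51), Manf (−0.48) and Dnajc3 (−0.44) fell, while Hspa5, the main chaperone BiP, was at 10.68, 10.54 and 10.72 in human APE1 and at 10.88, 10.82 and 10.77 in vector control (adjusted p = 0.138). The rises were Os9 (0.59) and Xbp1 (0.34), whose call was lost without any 1 of 4 arrays. Of 26 genes of the ATF4 stress response 7 fell and 3 rose, and the falls numbered 3 without human APE1 replicate 2 and 4 without vector control replicate 2.

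The promoters of Creld2 (chr15:88819396-88819695, plus strand) and Dnajc3 (chr14:118937682-118937981, plus strand) hold the stress element made of CCAAT, any 9 bases and CCACG, read on the opposite strand in Creld2, and are shown with it in capitals (RefSeq, GRCm38.p6).
Creld2: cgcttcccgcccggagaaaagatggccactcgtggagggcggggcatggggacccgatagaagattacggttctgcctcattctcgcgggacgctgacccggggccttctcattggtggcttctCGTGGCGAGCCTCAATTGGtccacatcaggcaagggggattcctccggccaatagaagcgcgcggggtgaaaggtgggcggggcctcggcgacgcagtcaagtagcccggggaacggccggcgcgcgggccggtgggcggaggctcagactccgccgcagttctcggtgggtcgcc
Dnajc3: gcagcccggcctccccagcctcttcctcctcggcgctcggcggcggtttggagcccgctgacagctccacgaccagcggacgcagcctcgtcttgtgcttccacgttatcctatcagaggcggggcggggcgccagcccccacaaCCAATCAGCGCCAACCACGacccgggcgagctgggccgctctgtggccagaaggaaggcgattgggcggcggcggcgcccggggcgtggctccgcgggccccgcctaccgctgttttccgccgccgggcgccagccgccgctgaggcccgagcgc
This element occurred in 0.119% of all promoters, in 9 of 26 list members with a promoter and in 2 of the 7 among them that fell.

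Of 33 genes of cholesterol synthesis and uptake 7 rose and 6 fell, and 3 rose without any 1 of human APE1 replicates 2 and 3 and vector control replicates 1 and 2. Hmgcs1, an early enzyme of the synthesis, rose by 0.44. Abca1, which exports cholesterol, was at 5.52, 5.51 and 5.34 in human APE1 and at 6.74, 6.42 and 6.89 in vector control, and Npc2, which carries it out of lysosomes, fell by 0.97. The falls numbered 3 without any 1 of human APE1 replicates 1 and 2 and vector control replicate 1.

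Rises and falls also ran in stretches along the chromosomes. Expressed protein-coding genes were put in RefSeq order (GRCm38.p6) and split into 436 windows of 25 neighbours, 10908 genes in all. The median of human APE1 minus vector control in a window lay between −0.37 and 0.72. It was at least 0.2 in 22 windows and at most −0.2 in 38. The same medians for each single vector control array against its group mean, of which it is part, lay between −0.10 and 0.05. In 14 windows at least 10 genes rose and 0 fell, and in 17 at least 10 fell and 0 rose. The stretches described next were chosen after these values were seen, and no cause of them was tested.

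**Figure D4:**
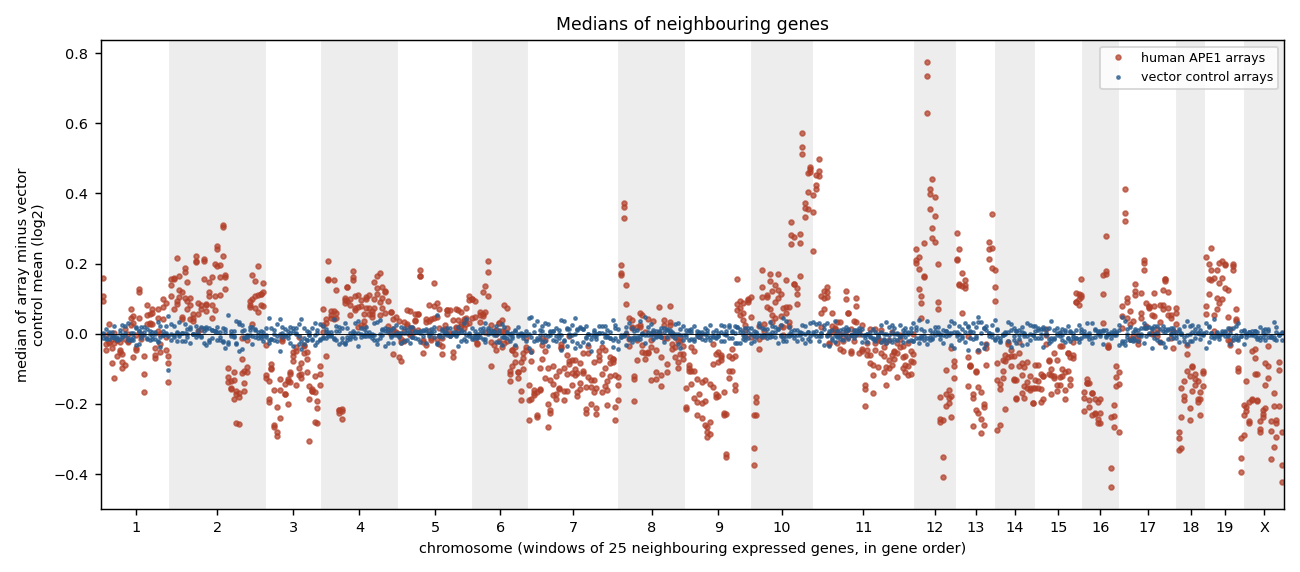
Median over 25 neighbouring expressed genes of each array's value minus the vector control mean (log2, vertical axis), for 436 windows in gene order along chromosomes 1 to 19 and X, human APE1 arrays in red and vector control arrays in blue. Vector control arrays stay between −0.10 and 0.05, while the 3 human APE1 arrays move together, up on distal chromosome 10, proximal 11 and central 12 and down over most of X. Each vector control array is part of the mean subtracted from it, which holds its medians near 0. All human APE1 arrays share that subtracted mean.

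At the end of chromosome 10, from Zfc3h1 to Itga7, 76 of 97 expressed genes rose and 0 fell, with a median of 0.46, a 1.37-fold level. The medians of the 3 human APE1 arrays were 0.46, 0.45 and 0.46. This stretch holds Mdm2, Cdk4, Cdk2, Stat2, Erbb3, Os9 and Ddit3, which were counted as rises in the lists above. At the start of chromosome 11, from Sfi1 to Etaa1, 50 of 75 genes rose and 0 fell (median 0.41), Xbp1 among them. In window 2 of chromosome 8, 17 of 25 genes rose and 1 fell (median 0.38), with Irs2 among the rises and Col4a2 the fall. In windows 13 to 15 of chromosome 13, 30 of 74 rose and 3 fell (median 0.22), with Cenpk among the rises and Emb among the falls. On chromosome 12, 77 of 125 genes from G2e3 to Fam161b rose and 11 fell (median 0.36), and the next 141 genes, from Coq6 to Itgb8, had 11 rises and 53 falls (median −0.19). The first stretch holds Hif1a, Nfkbia, Mthfd1, Six4 and the neighbours Klhl28 (1.86), Prpf39 (1.03), Fkbp3 (0.94) and Fancm (1.39), and the second holds Tgfb3, Ltbp2, Fbln5, Sel1l, Npc2 and Sptlc2. Human APE1 minus mouse Ape1 had a median of −0.21 in the first stretch, with 12 genes higher and 54 lower. By this median the first stretch was higher still in mouse Ape1, so its rise does not set human APE1 apart from that line. In the stretches of chromosomes 10, 11, 8 and 13 the same median was positive, at 0.285, 0.166, 0.256 and 0.369.

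**Figure D5:**
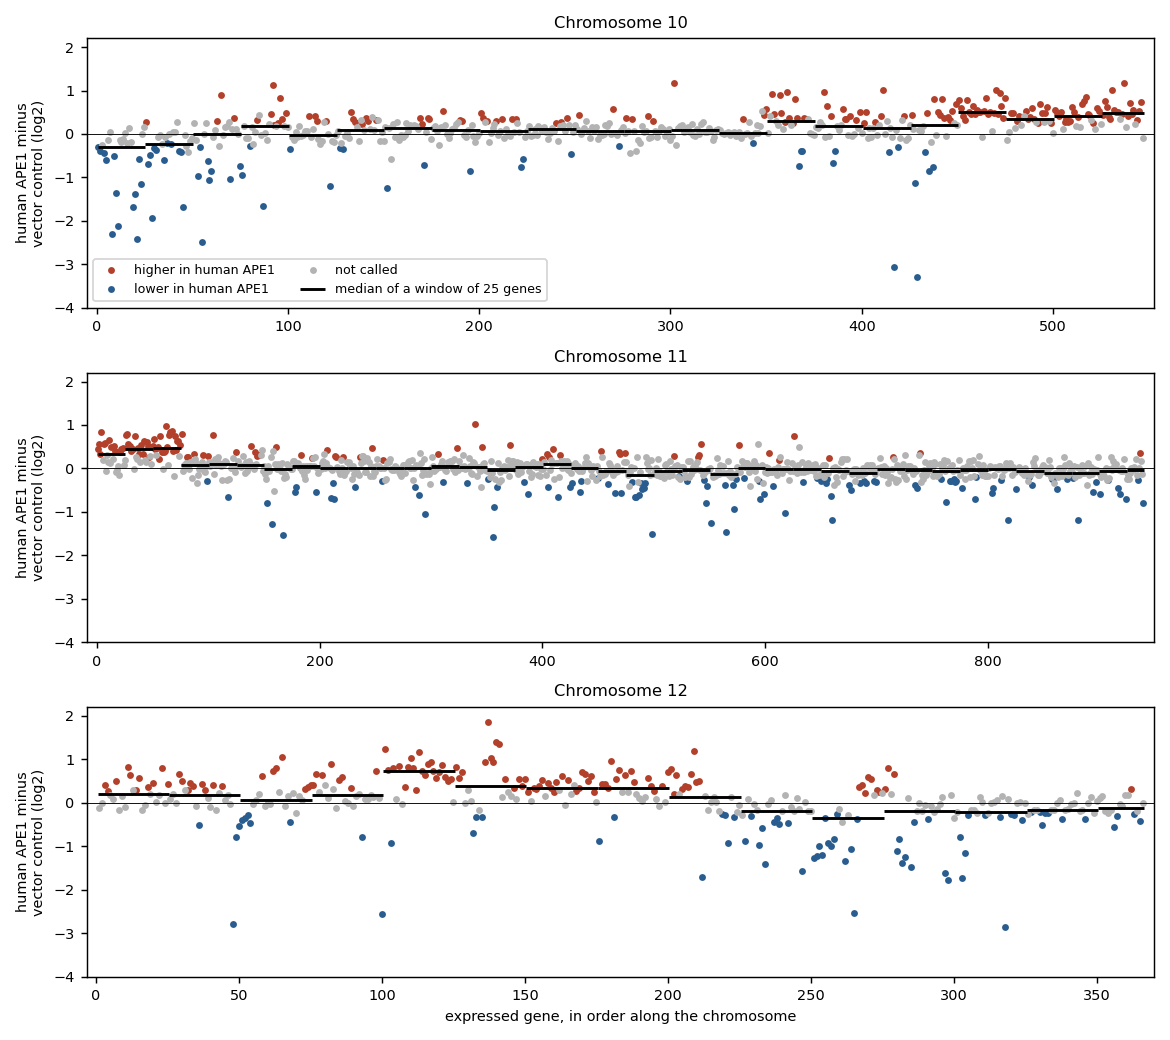
Human APE1 minus vector control (log2, vertical axis) of each expressed gene in order along chromosomes 10, 11 and 12 (horizontal axis), with rises in red, falls in blue, other genes in grey and window medians as black lines. At the end of chromosome 10, 76 of 97 genes are red and 0 blue, and on chromosome 12 the median changes sign between neighbouring stretches.

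Falls also ran in stretches, and those described here are not all of them. Among all expressed genes 225 of 1016 fell and 18 rose on chromosome 7, and 155 of 623 fell and 21 rose on chromosome 3. On chromosome 16, 121 of 396 fell and 43 rose, and on chromosome 14, 96 of 444 fell and 10 rose. In window 1 of chromosome 10, 13 of 25 genes fell and 0 rose (median −0.30). On the X chromosome 131 of 349 expressed genes in the windows fell and 12 rose (median −0.21), at the end of chromosome 19 from Sufu 30 of 50 fell and 1 rose (−0.29), with Prdx3 and Gsto1 among them, and in the first windows of chromosome 18, 28 of 50 fell and 1 rose (−0.30). In windows 1 to 19 of chromosome 9, 143 of 475 fell and 16 rose (−0.14). The falls there include Tagln, Tpm1, Col12a1, Plod2, Loxl1, Dlat and Casp4, and Mcam is among the rises. In windows 22 to 29 of chromosome 2, 45 of 200 fell and 4 rose (−0.13), with Jag1 and E2f1 among the falls. On the Y chromosome 5 of 9 listed genes fell and 0 rose by limma (2 higher at an unadjusted p under 0.05). Without any 1 array 0 or 1 rose, and 3 of the 9 were dim in both lines. Ddx3y, an RNA helicase, was at 9.07, 9.04 and 9.09 in human APE1 and at 10.26, 10.23 and 10.15 in vector control, a 2.22-fold fall, and Kdm5d (−1.05), Uty (−0.96) and Eif2s3y (−0.75) fell with it. Rbmy1a1, a Y-linked gene of germ cells on 9 transcript clusters of a multicopy family, was at 3.55, 3.31 and 3.64 in human APE1, below the 25th percentile, and at 10.29, 10.11 and 10.14 in vector control.

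After the median of its window was subtracted on each array, an alternative added after these values were seen, several rises in those stretches were no longer called. Cdk4 was at 0.17 (adjusted p = 0.0883), Mdm2 at 0.11 (0.321 adjusted), Os9 at 0.24 (0.0591 adjusted) and Ddit3 at 0.13 (0.288 adjusted) by limma. The falls of Dlat, Pdhb, Pdgfrb, Fzd8, Loxl2, Serpinh1 and Zeb1 and the rises of Tdp2, Txnrd1, Mthfd1 and Osr1 were not called either, and Cdk2, Nfkbia, Hif1a and Xbp1 changed sign. Stat2 (0.32), Erbb3 (0.53), Klhl28 (1.45) and Fancm (0.98) stayed called as rises, and Tgfb3 (−1.26), Sel1l (−0.71), Ltbp2 (−1.11) and Prdx3 (−0.81) as falls. Rising cyclins and kinases numbered 4 of 32 instead of 11, rising replication genes 4 instead of 10 and axon guidance rises 5 instead of 10. Rises numbered 1 instead of 4 in each of the hypoxia, other redox factor and antioxidant lists, 5 instead of 8 for mesenchymal transcription factors, 3 instead of 5 for base excision repair, 2 instead of 4 for matrix proteases and 0 instead of 2 for endoplasmic reticulum genes. Fewer falls were called too: 2 instead of 5 for proteoglycans, 0 instead of 3 for base excision repair and for mitosis, 0 instead of 5 for other repair pathways, 5 instead of 9 for p53 targets and for NF-kB genes, 3 instead of 6 for cholesterol and for replication genes and 3 instead of 5 for lactate transport and pyruvate dehydrogenase, while integrin falls numbered 6 instead of 3. Lists within 1.5 times of their count included falls of 13 of 24 for collagen processing, 9 of 37 for contractile genes, 9 of 40 for cadherins, 15 of 54 for interferon-stimulated genes and 10 of 28 for MHC class I presentation, and rising mitosis genes numbered 19 of 62.

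The mouse Ape1 line shares the same vector control arrays, so its values are given beside the others without a further comparison against vector control. Human APE1 and mouse Ape1 differed directly in 4081 genes (16.6%). Asap2 was at 4.64, 4.68 and 4.74 in human APE1, with a mean of 8.44 in mouse Ape1 and of 7.47 in vector control (human APE1 minus mouse Ape1 −3.76, adjusted p = 5.22e-07). Ccnd2 had means of 8.10 in human APE1, 11.07 in mouse Ape1 and 10.37 in vector control (−2.96, adjusted p = 5.22e-07), and Prkd1 4.95, 8.08 and 7.51 in the same order. B4galt6 averaged 6.15 in human APE1, 9.27 in mouse Ape1 and 9.34 in vector control, and Tmsb4x 6.24, 9.06 and 8.98. Other genes had low means in both complemented lines: Acta2 averaged 8.18 in human APE1, 7.60 in mouse Ape1 and 11.95 in vector control, Tagln 6.50, 6.38 and 8.69, and Dcn 5.82, 5.59 and 8.87. Among rises, Mcam averaged 9.51 in human APE1, 10.04 in mouse Ape1 and 7.67 in vector control, whereas Ptn averaged 10.20, 8.41 and 8.35 in the same order (human APE1 minus mouse Ape1 1.79, adjusted p = 9.07e-05).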

How the data were processed

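Per the labels' protocols, RNA of growing cells (60 mm dishes, 10% serum) was read on Affymetrix arrays, and Expression Console turned it into the deposited RMA values, on the log2 scale. RMA gives arrays a common distribution and compresses dim differences. The authors' deposited table holds log2 means of each group, linear ratios and unadjusted p-values, per the file headers. The submitters' processing notes name Partek. No source used here gives the array's design or genome build.

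Values were used as deposited. Symbols came from the authors' table, with 28 that a spreadsheet had turned into dates restored. Each of 24647 genes was represented by its brightest cluster (1646 symbols have several). The fit (limma 3.58.1, R 4.3.3) had 3 group means over 9 arrays and 6 residual degrees of freedom, and p-values were adjusted by Benjamini-Hochberg over 41345 clusters. The fit was tested on simulated data. Replicate numbers did not pair arrays (r of same-numbered deviations −0.03 to 0.04). Promoters came from RefSeq tables (GRCm38.p6). Tables used Python 3.11.15 and pandas 2.3.3.

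The members, gene lists and stretches were chosen with earlier results of these data known. Named genes are the 30 largest rises and 30 largest falls that passed with groups apart, without predicted or non-coding symbols, list members, and Apex2. Prpf39 and Fkbp3 and the first and last genes of stretches were named after their values were seen. A few genes that this rule would name are not reported here.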

Additional observations from a re-analysis of the deposited data

How the results depend on the processing

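Without any 1 array, called transcript clusters numbered 3185 to 4776, genes that rose 1106 to 1417 and genes that fell 1486 to 2180. Rises numbered 1078 with only the 6 arrays of both lines, where fewer arrays estimate the spread, and 1048 with array medians subtracted, which moved the median of all genes to −0.05, and the cause was not tested. The replicate number as a block gave 1200 rises and 1748 falls, although the numbers do not pair these arrays. Of 259 called genes named in the text 232 kept their call in every alternative. With window medians subtracted Cdk2 was at −0.0119, Hif1a at −0.0954, Nfkbia at −0.1538 and Xbp1 at −0.0793, and, of genes not called, Apex2 at 0.0262, Fn1 at 0.0458, Fos at 0.2222, Jun at −0.0701 and Thy1 at 0.0212. With array medians subtracted Ccnd1 was at −0.0154 and Jun at −0.0122, and with quantile normalization run again Trp53 was at 0.0368. Without any 1 array, Trp53 lay between −0.0422 and 0.0307, Vegfa between −0.0715 and 0.0171 and Thy1 between −0.1889 and 0.0351. The cause of these turns was not tested. List counts stayed within 1.5 times the reported count in 1684 of 2014 recomputed values. Under the authors' deposited table, which has its own summary of the clusters, 1528 genes rose and 1833 fell. Signal near background limits the genes below the 25th percentile.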

Other observations

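Amino acid transporters and lipid genes also moved both ways. The share of each list that passed was near the 26.8% of expressed genes. Of 40 amino acid transporters 8 fell and 4 rose, and the falls numbered 5 without human APE1 replicate 1 or 2 and the rises 1 or 2 without any 1 human APE1 or vector control array. Besides Slc6a15, Slc7a2 and Slc7a11, the creatine transporter Slc6a8 (−1.04) and Slc7a5, which carries large neutral amino acids (−0.41), fell. Of 34 genes of lipid and glycosphingolipid synthesis 6 fell and 4 rose. B4galt6, lactosylceramide synthase, was at 6.36, 6.01 and 6.07 in human APE1 and at 9.24, 9.37 and 9.41 in vector control, and Sptlc2, a subunit of the first enzyme of sphingolipid synthesis, fell by 0.93. The rises numbered 1 or 2 without any 1 of 7 arrays, and 1 with window medians subtracted. Of 17 osteogenic genes 4 fell and 0 rose by limma (2 higher at an unadjusted p under 0.05), 23.5% beside 26.8% of expressed genes. The falls included Enpp1 (−1.06) and Ank (−0.89), both of which handle pyrophosphate, beside Spp1.

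Of 39 Hox genes, which mark position along the body axis, 5 rose and 4 fell, 23.1% beside 26.8% of expressed genes. The rises numbered 0 without human APE1 replicate 1 and 0 after window medians were subtracted. The Hox falls numbered 1 without vector control replicate 3 and 2 without human APE1 replicate 1 or 2. Hoxc8 was at 7.99, 7.97 and 8.07 in human APE1 and at 8.87, 8.81 and 8.69 in vector control (−0.78). Of 22 genes of the pentose phosphate and one-carbon pathways 5 rose and 3 fell, the falls numbering 0 without any 1 of human APE1 replicates 1 and 2 and vector control replicates 1 and 3 (with window medians subtracted 2 rose and 0 fell), with Aldh1l2 of mitochondria (0.80) and Mthfd1 (0.55) higher. Dhrs3, which reduces retinaldehyde, was the rise among 23 retinoic acid genes (0.83). Of 16 neural and glial markers 2 fell, with Tubb3, a tubulin, at 5.93, 5.44 and 5.41 in human APE1 and at 7.30, 7.41 and 7.14 in vector control.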
